A study of Mus musculus with 16 samples.

Results

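Livers of wild-type mice and of mice lacking PPARα were compared while both received Wy14643, a synthetic agonist of that receptor. The comparison used 8 of the 16 arrays of the series, all arrays whose labels name Wy14643 treatment, over 45037 probe sets of an Affymetrix mouse genome array. The mice were male and 3 to 5 months old, and 1 array was made from the liver RNA of each mouse. Wild-type mice (n = 4) were of the strain 129S1/SvImJ and PPARα-null mice (n = 4), called knockout here, of 129S4/SvJae, and both ate food with 0.1% Wy14643 by weight for 5 days. The other 8 arrays came from the same genotypes on control food (n = 4 each). The Ppara disruption is in every cell of the mouse, and substrain and genotype cannot be told apart in any comparison of the genotypes. In whole liver RNA, fewer cells of a type and less RNA per cell cannot be told apart either.

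PPARα is a nuclear receptor that is abundant in hepatocytes and is activated by fatty acids and by fibrate drugs. With its partner RXR it binds a direct repeat of the hexamer AGGTCA spaced by 1 base, and it is known for switching on fatty acid uptake, activation and oxidation in mitochondria, peroxisomes and the endoplasmic reticulum. In rodents its agonists also enlarge the liver, multiply peroxisomes and drive hepatocytes into the cell cycle. With agonist in both genotypes, the comparison asks which transcripts differ with the receptor when its ligand is present.

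Within a group the arrays correlated with Pearson's r of 0.9894 to 0.9938 in wild type and 0.9874 to 0.9937 in knockout, against 0.9613 to 0.9686 between the genotypes on Wy14643 and 0.9905 to 0.9925 between the genotypes on control food. The first principal component of the 8 arrays held 80.1% of the variance and parted the genotypes. The second held 7.69% and set knockout replicate 4 apart, at -38.1 against -7.59 to 15.8 for the other 7 arrays. That array lay more than 1 log2 unit beyond the other 3 knockout arrays in 60 genes, 56 of them lower, among 5170 genes with a mean of at least 6. The other 7 arrays did so in 0 to 26 genes. Without it, 4930 probe sets were called, against 4991 with all arrays, but the directions shifted. Those higher in wild type fell from 2779 to 2544 and those lower rose from 2212 to 2386. Without that array 8 of the named genes lost their call, among them Lipg, Cyp2c39 and Cry2. Replicates are separate animals, and 4 arrays a group limit the precision of each difference.

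All values below are log2 intensities, all differences are wild type minus knockout on Wy14643 on the log2 scale with their standard error, and adjusted p-values are from limma with Benjamini-Hochberg adjustment over all probe sets. A gene or probe set was called at an adjusted p under 0.01 and a fold over 1.5. Of the probe sets, 2779 were called higher in wild type (6.17%) and 2212 lower (4.91%). With each of 18193 genes represented by its brightest probe set, 1478 were higher (8.12%) and 1298 lower (7.13%), and the median difference over all genes was -0.04. The 4 arrays of each genotype did not overlap in 2521 genes that were higher (13.9%) and 2523 that were lower (13.9%). Every count of a gene group below is to be read against these shares.

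Large differences lay mostly on the side of wild type. Beyond 8-fold, 157 genes were higher and 51 lower, and beyond 64-fold 23 were higher and 2 lower. In 53 of the 157, and 4 of the 51, the dimmer genotype averaged at or below 2.24, the highest array median, so that only a bound can be given against that level. Such differences are written "at least". Dimmer means just above that level, such as those of Cyp4a31 (2.40), Fabp3 (2.43), Slc22a7 (2.44) and Cox6b2 (2.36), are given no bound. The size of those differences can still be set by background. Among called genes with both means at 6 or above, where background counts for less, the numbers were 625 higher and 665 lower. The plot of group means shows the called genes on either side of the diagonal.

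**Figure D1:**
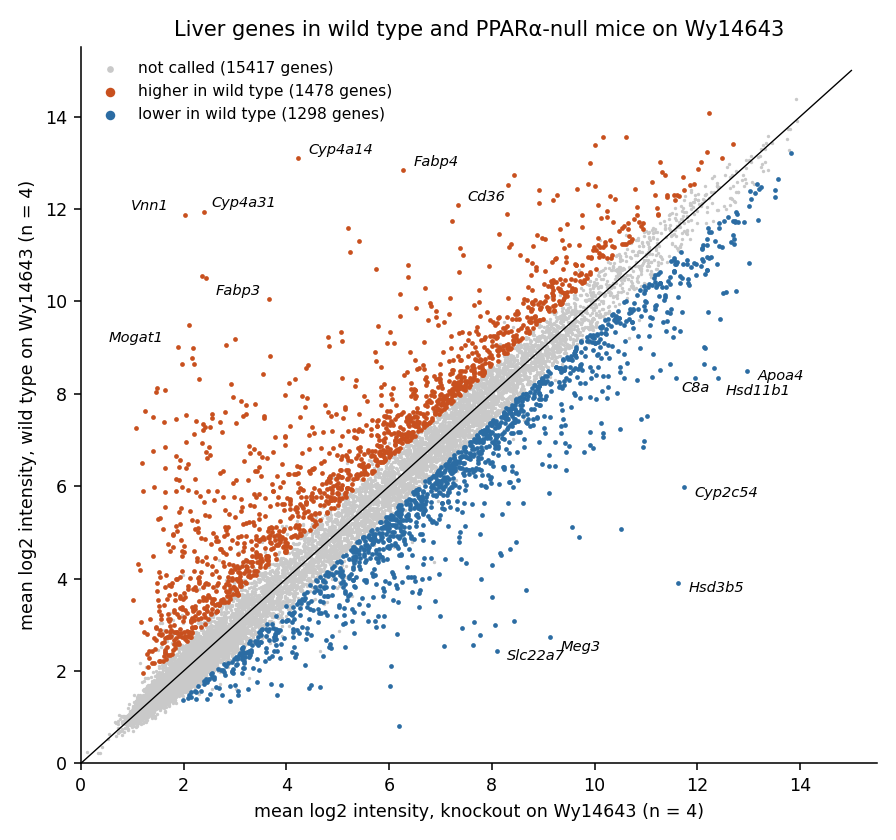
Mean log2 intensity of 18193 genes (1 probe set per gene) in knockout (horizontal axis) and wild type (vertical axis) on Wy14643, 4 arrays each. The 1478 genes higher in wild type reach far above the diagonal at low knockout values, and the 1298 lower ones reach far below it at knockout means above 8.

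Ppara itself was lower in knockout in all 3 of its probe sets. The brightest gave 10.80, 10.81, 10.83 and 10.70 in the wild-type arrays and 9.35, 9.47, 9.68 and 10.04 in the knockout arrays, a difference of 1.15 ± 0.17 (adjusted p = 5.10e-05). The other probe sets differed by 1.43 and 2.2. The genotypes did not overlap in any of the 3, but signal well above the array medians remained in every knockout array, and where the probes lie with respect to the disruption was not analysed here.

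Genes that bring fatty acids into the cell and bind them were among the largest increases, with 8 of 13 measured members higher and 2 lower (median 1.61). Fabp3, a fatty acid binding protein best known from heart, gave 10.37, 10.70, 10.20 and 10.72 in wild type and 2.42, 2.99, 2.09 and 2.21 in knockout, a difference of 8.07 ± 0.17 (adjusted p = 1.20e-15). Fabp4, the adipocyte binding protein, gave 12.79, 12.98, 12.75 and 12.84 against 5.79, 6.70, 6.26 and 6.32. Both genes were at nearly the same level in the genotypes on control food (-0.05 and -0.21, neither called). The 2 members that were lower in wild type were Slc27a5, a bile acid and very long chain fatty acid CoA ligase (-0.88 ± 0.08), and Fabp7 (-1.04 ± 0.21).

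The enzymes that attach fatty acids to coenzyme A, with their binding proteins, went both ways. Of 14 measured genes 8 were higher and 2 lower (median 0.67). Of the long chain ligases, Acsl3 was higher by 2.34 ± 0.17, Acsl5 by 1.72 ± 0.09 and Acsl4 by 1.08 ± 0.13, while Acsl6 was not called. The medium chain ligases Acsm1 and Acsm2 were the lower pair, Acsm3 was higher (0.66) and Acsm5 was not called (-0.20). Acsm1 gave 9.78, 9.80, 9.94 and 9.83 in wild type and 11.08, 11.23, 11.10 and 11.26 in knockout (-1.33 ± 0.08). Acyl-CoA thioesterases, which undo this step, were called in all 12 measured members, 11 higher and 1 lower (median 2.68). Acot1, the cytosolic long chain thioesterase, gave 12.57, 12.51, 12.43 and 12.58 against 8.69, 7.94, 8.42 and 8.20, whereas Acot11 gave 3.04, 4.01, 4.47 and 4.25 against 6.96, 6.68, 5.97 and 6.44 (-2.57 ± 0.26). Acot11 was thus the single member whose wild-type arrays all lay below the knockout arrays. Coenzyme A turnover genes had 11 measured members, 9 higher and 0 lower, and Ppcs, an enzyme of coenzyme A synthesis, differed by 2.23.

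The carnitine shuttle, which carries acyl groups into mitochondria, was higher in 7 of 10 members and lower in 0 (median 1.42). The carnitine importer Slc22a5 gave 10.46, 10.70, 10.86 and 10.77 in wild type and 5.97, 5.29, 5.76 and 5.93 in knockout (4.96 ± 0.15). Carnitine acetyltransferase, Crat, gave 10.76, 10.83, 10.81 and 10.78 against 6.49, 6.45, 6.48 and 6.05, and its lowest knockout array was replicate 4. Of the enzymes in sequence, Cpt1a at the outer membrane was higher by 1.20 ± 0.13, the carrier Slc25a20 by 3.32 ± 0.09 and Cpt2 at the inner membrane by 2.84 ± 0.10. Whether these differences differ from each other was not tested.

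Mitochondrial β-oxidation was higher in 16 of 20 members and lower in 1 (median 1.34). The acyl-CoA dehydrogenases of different chain length all differed, with Acadl at 2.78 ± 0.09, Acadvl at 2.21 ± 0.07, Acadm at 1.38 ± 0.08 and Acads at 1.21 ± 0.09. Both chains of the trifunctional protein were higher by close amounts, Hadha by 2.11 ± 0.08 and Hadhb by 2.01 ± 0.08. The member that was lower was Acadsb, which acts on branched chain acyl-CoA from isoleucine, with 7.86, 7.65, 7.88 and 7.73 in wild type and 9.29, 9.36, 9.17 and 9.55 in knockout. Ketone body genes went both ways, with 2 of 5 higher and 1 lower. Bdh1, the mitochondrial β-hydroxybutyrate dehydrogenase, differed by -0.11 ± 0.09 and was not called, and the cytosolic Bdh2 gave 4.24, 4.21, 3.62 and 3.89 against 7.67, 7.70, 7.71 and 8.05 (-3.79 ± 0.14).

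Peroxisomal oxidation genes had 28 measured members, 15 higher and 4 lower (median 0.96). Ehhadh, the bifunctional enzyme of the straight chain pathway, gave 13.43, 14.02, 13.43 and 13.33 in wild type and 10.25, 10.20, 10.19 and 10.02 in knockout (3.39 ± 0.16). The very long chain importer Abcd2 gave 8.35, 7.77, 7.85 and 8.20 against 1.48, 1.30, 1.34 and 1.70, which is at least 5.81 higher. Its relative Abcd3 was bright in both genotypes and differed by 1.75 ± 0.08. The 4 lower members were Pipox, which oxidizes sarcosine and pipecolate (-1.91 ± 0.13), the trans-2-enoyl-CoA reductase Pecr (-0.96 ± 0.08), the CoA diphosphatase Nudt7 (-0.95) and the glycolate oxidase Hao1 (-0.84). Peroxisome assembly genes had 17 measured members, 7 higher and 3 lower. Pex11a, which drives peroxisome division, differed by 3.61 ± 0.08, Pex19 by 1.75 and Pex3 by 1.39, while Pxmp2 was lower (-1.08).

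Microsomal ω-oxidation held relatives that differed in sign, with 5 of 13 members higher and 3 lower (median -0.32). Cyp4a31 gave 11.95, 11.93, 11.97 and 11.87 in wild type and 2.09, 3.10, 2.36 and 2.04 in knockout (9.53 ± 0.21). Cyp4a14 was nearly constant in wild type, from 12.98 to 13.27, but in knockout the arrays gave 4.26, 6.73, 4.23 and 1.65, the lowest being replicate 4. Cyp4f14, which hydroxylates leukotrienes and fatty acids, ran the other way, with 5.40, 4.29, 5.73 and 4.87 against 10.53, 10.43, 10.64 and 10.47 (-5.45 ± 0.21). The genotypes did not overlap in any of these 3 genes.

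**Figure D2:**
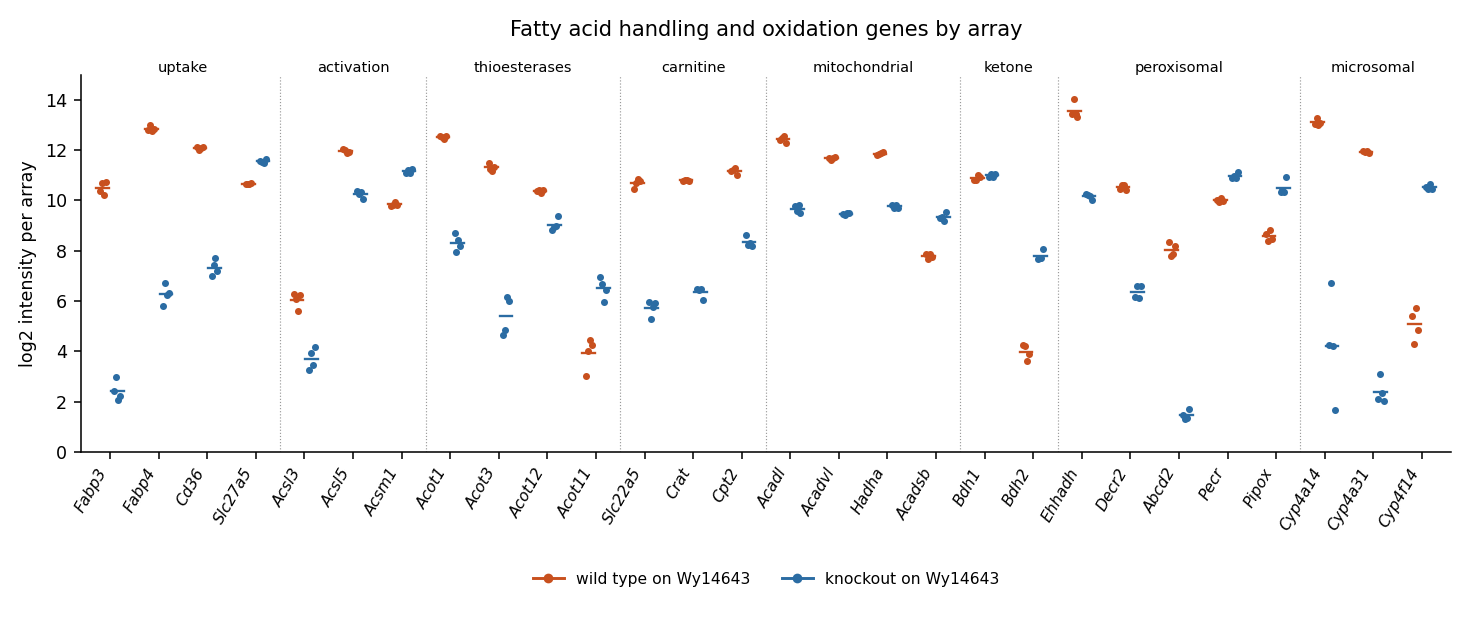
Log2 intensity per array of fatty acid genes in wild type and knockout on Wy14643, ordered from uptake to microsomal oxidation, with 1 point per array and a bar at the mean of 4. In most blocks wild type lies above knockout, and Slc27a5, Acsm1, Acot11, Acadsb, Bdh2, Pecr, Pipox and Cyp4f14 lie the other way.

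Genes of triglyceride storage and of triglyceride breakdown were both higher more often than lower. Lipid droplet genes had 14 measured members, 10 higher and 0 lower (median 2.42), triglyceride synthesis genes 16, 8 higher and 0 lower (median 0.74), and lipases and their regulators 19, 11 higher and 2 lower (median 0.74). Mogat1, which adds an acyl group to monoacylglycerol, gave 9.05, 9.07, 9.12 and 8.82 in wild type and 1.83, 1.85, 1.76 and 2.14 in knockout, at least 110-fold higher. Cidec, which fuses lipid droplets, gave 8.35, 8.64, 8.41 and 9.18 against 2.06, 2.12, 2.07 and 2.56. Its relative Cidea spread widely within wild type, at 6.05, 7.93, 6.31 and 9.27, above knockout arrays of 1.43 to 1.79. The droplet lipase Pnpla2 gave 9.74, 9.94, 9.90 and 10.01 against 6.82, 6.84, 7.07 and 6.53. The endothelial lipase Lipg was called with 2.67 ± 0.65, but its knockout arrays ran from 2.42 to 5.66 and the call was lost in 5 of the refits that left out 1 array, with a difference of 2.0 to 3.08 over all alternatives. Glycerol genes were higher in 3 of 8, the glycerol channel Aqp3, at least 3.23, and the glycerol phosphate dehydrogenases Gpd2 (1.33) and Gpd1 (1.02), while Gpd1l was not called (0.21).

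Fatty acid synthesis was mixed, with 10 of 27 genes higher and 4 lower (median 0.35). The acetyl-CoA carboxylase at the mitochondrial surface, Acacb, gave 9.05, 9.11, 9.03 and 9.22 in wild type and 6.0, 5.95, 6.0 and 5.87 in knockout (3.15 ± 0.18), and the cytosolic Acaca differed by 1.48 ± 0.16. Malic enzyme Me1 (2.49), the desaturases Scd1 (2.95) and Fads2 (2.41) and the elongase Elovl7, at least 4.33, were also higher. Acly, which supplies cytosolic acetyl-CoA, differed by -0.98 ± 0.19, the lipogenic nuclear protein Thrsp by -3.16 ± 0.37 and the carbohydrate sensor Mlxipl by -0.78. Fatty acid synthase, Fasn, gave 10.45, 10.08, 9.96 and 9.91 against 9.50, 9.49, 9.25 and 8.38, with no overlap but an adjusted p of 0.036 in limma. Cholesterol synthesis was called in 2 of 21 members higher and 1 lower, close to the share of all genes. Wild-type replicate 3 lay more than 1 unit under the other 3 wild-type arrays in Sqle, Msmo1, Nsdhl, Idi1 and Lss of that pathway, and without it 5 members were higher.

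Lipoprotein genes went both ways, with 4 of 24 higher and 5 lower. Pltp, the phospholipid transfer protein, gave 11.68, 12.04, 11.47 and 11.74 in wild type and 7.25, 7.35, 7.39 and 6.89 in knockout (4.51 ± 0.13). Apoa4 gave 7.99, 8.18, 7.91 and 9.87 against 13.17, 12.93, 12.93 and 12.88 (-4.49 ± 0.29), so that the largest changes of the group pointed in opposite directions. Apoc3 was lower by a small and even amount (-0.84 ± 0.07). Phosphatidylcholine and one carbon genes went both ways. Among those higher were choline kinase Chkb at 2.88, the transfer protein Pctp at 2.30, Lpcat3 at 1.89 and Chpt1 at 1.35, and among those lower the glycine and methyl group enzymes Sardh at -1.60, Aldh1l1 at -1.57, Gnmt at -1.43 and Bhmt at -1.11. In all, 6 of 26 were higher and 7 lower.

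Bile acid genes were mostly lower in wild type, 11 of 21 against 3 higher (median -0.93). Slco1a1, an organic anion importer of male liver, gave 6.75, 6.73, 8.07 and 6.40 in wild type and 10.84, 10.99, 10.76 and 11.22 in knockout (-3.97 ± 0.25). Akr1d1, the steroid 5β-reductase of bile acid synthesis, was lower by 3.06 on the log2 scale, the oxysterol hydroxylase Cyp7b1 gave -1.56 ± 0.19 and the export pump Abcb11 -1.23 ± 0.14. The exporter Abcc4 (4.86) and the phospholipid exporter Abcb4 (1.16) were higher. Cyp7a1, the rate-limiting enzyme, gave 9.37, 10.12, 8.68 and 10.96 against 8.98, 10.01, 9.81 and 10.06, a difference of 0.07 ± 0.60 that the spread within each group exceeded. Cyp8b1 was not called either (0.99 ± 0.29, adjusted p = 0.0204 in limma).

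Mitochondrial energy genes mostly differed by small amounts. Of 46 respiratory chain and ATP synthase genes 6 were called higher and 0 lower, yet 37 had every wild-type array above every knockout array and 0 the reverse (median 0.32). Ndufb3, of complex I, gave 10.74, 10.60, 10.76 and 10.67 in wild type and 9.37, 9.48, 9.32 and 9.36 in knockout, and cytochrome c, Cycs, differed by 0.97 ± 0.08. Mitochondrial ribosome and import genes did likewise, with 10 of 41 called higher, 0 lower and 32 without overlap upward (median 0.40). Of 31 tricarboxylic acid cycle and pyruvate genes 6 were higher and 0 lower. With the probe set of largest standard deviation for each gene, 10 were higher and 2 lower. Pdk4, the kinase that shuts pyruvate dehydrogenase, gave 11.71, 12.25, 11.81 and 10.59 against 5.56, 5.54, 4.47 and 5.23 (6.39 ± 0.51).

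Plasma protein genes were lower in wild type as a group. Of 25 complement genes 21 were lower and 0 higher (median -1.33), of 27 coagulation genes 17 and 0 (median -0.82), and of 36 acute phase and other plasma genes 19 and 5 (median -0.62). C8a, a chain of the membrane attack complex, gave 8.52, 8.55, 8.93 and 8.54 in wild type and 12.10, 12.14, 12.16 and 12.15 in knockout (-3.50 ± 0.10). C8b, its partner, differed by -3.45 ± 0.15, but the third chain of the same complex, C8g, by -0.94 ± 0.08. C1s1, the protease of the first component, gave 7.06, 7.40, 7.20 and 7.25 against 10.55, 10.55, 10.56 and 10.36. In the clotting cascade F11 (-3.11 ± 0.12) and F7 (-2.81 ± 0.14) led, and the genotypes did not overlap in 24 of the 27 members. Albumin, Alb, differed by -0.03 ± 0.07, with arrays from 13.86 to 13.96. The 5 acute phase members that were higher included Fgl1 (1.42), Lbp (1.27) and Il1r1 (1.19), and Saa1 was lower, at 3.20, 3.28, 2.90 and 5.06 against 7.68, 9.15, 7.66 and 7.51. The 6 hepatocyte markers, of which Fga and Cps1 were called lower and 0 higher, summed to 15.78 to 15.83 in wild type and 16.03 to 16.07 in knockout (log2 of the summed intensities).

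**Figure D3:**
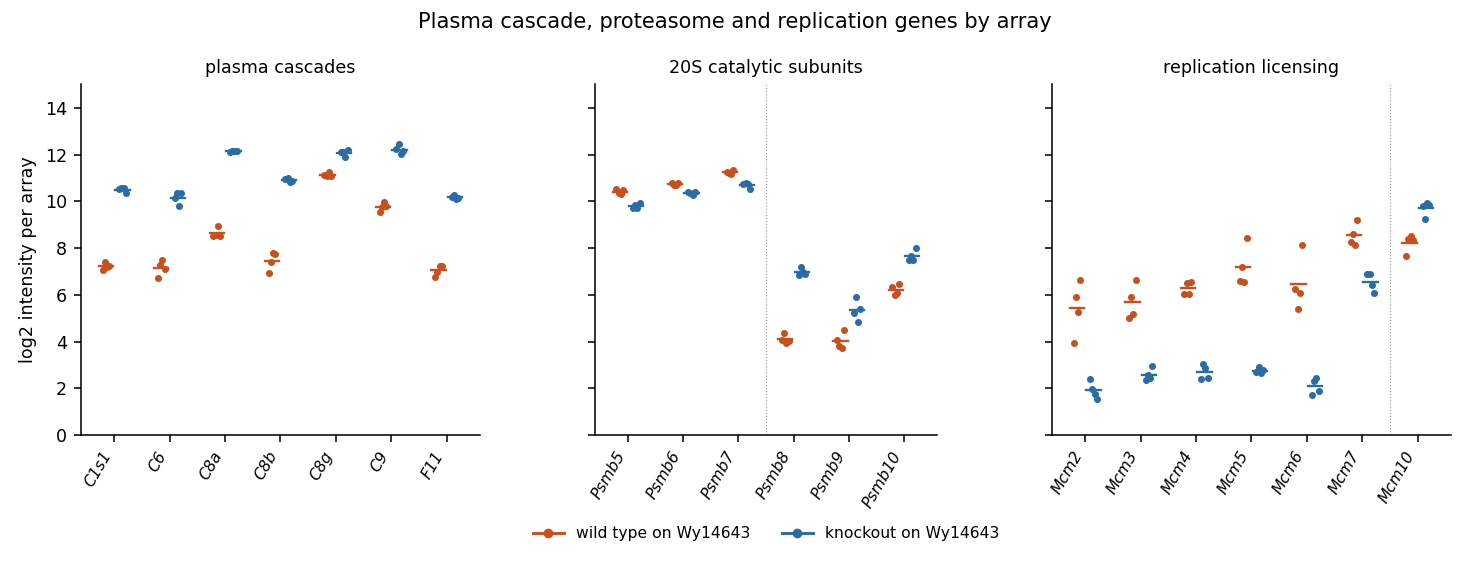
Log2 intensity per array of complement genes and F11 (left), of proteasome catalytic subunits (middle, constitutive before the dotted line and interferon-inducible after it) and of replication licensing genes (right), with a bar at the mean of 4 arrays. Wild type lies below knockout for C8a but for C8g by less, the proteasome subunits cross over between Psmb7 and Psmb8, and Mcm10 lies opposite to Mcm2 to Mcm7.

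Drug and steroid metabolism was likewise lower. Of 35 cytochromes P450 of families 1 to 3, 19 were lower and 2 higher (median -0.88), of 41 conjugation enzymes 21 and 5 (median -0.61), and of 38 carboxylesterases, aldehyde and retinol dehydrogenases and aldehyde oxidases 12 and 5 (median -0.21). Cyp2c54 gave 6.43, 5.80, 5.97 and 5.70 in wild type and 11.67, 11.64, 11.81 and 11.85 in knockout (-5.76 ± 0.15), and Cyp1a2, the caffeine hydroxylase, 10.27, 10.04, 10.20 and 10.18 against 12.52, 12.50, 12.46 and 12.55 (-2.33 ± 0.08). Cyp2c38 and Cyp2c39 were the 2 exceptions, higher by 2.41 ± 0.45 and 1.95 ± 0.47. On control food Cyp2c38 differed by 2.54 and Cyp2c39 by 2.05, the latter not called (adjusted p = 0.059 in limma), and on Wy14643 the call of Cyp2c39 was lost in 6 of the refits that left out 1 array. Members of 1 family can share probes, so single Cyp2c values are uncertain. Hsd11b1, which regenerates active glucocorticoid, gave 8.48, 8.21, 8.47 and 8.17 against 12.37, 12.29, 12.37 and 12.55 (-4.06 ± 0.10). Nr1i2, the pregnane receptor that drives several of these enzymes, was higher by 2.11 ± 0.21, and the related Nr1i3 was not called (0.22 ± 0.12).

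Solute carriers of organic ions, sugars, amino acids and other small molecules were lower in 13 of 32 members and higher in 5. Slc22a7 gave 2.52, 2.42, 2.33 and 2.50 in wild type and 8.35, 8.58, 7.99 and 7.50 in knockout (-5.66 ± 0.19). Among the monocarboxylate carriers Slc16a5 (3.25) and Slc16a7 (0.99) were higher. Amino acid and urea cycle genes had 48 measured members, 24 lower and 2 higher (median -0.63). Otc, of the urea cycle, gave 9.40, 9.26, 9.74 and 9.0 against 11.61, 11.65, 11.69 and 11.68 (-2.30 ± 0.12), the histidase Hal differed by -2.41 ± 0.14 and Cbs, of cysteine synthesis, by -2.07 ± 0.11. Csad (1.70) and Hibch (0.82) were the 2 that were higher. Of 29 genes that mark the portal or central end of the lobule 12 were lower and 0 higher (median -0.64), among them Hal and Cyp1a2, which stand at opposite ends.

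Growth hormone signalling and sex-biased genes had 33 measured members, 17 lower and 6 higher (median -0.95). The receptor Ghr gave 10.32, 10.47, 10.46 and 10.38 in wild type and 11.73, 11.88, 11.76 and 11.88 in knockout (-1.40 ± 0.08), and its secreted product Igf1 differed by -1.25 ± 0.10. Hsd3b5, a male-specific steroid reductase, gave 3.28, 3.26, 6.13 and 2.98 against 11.70, 11.78, 11.44 and 11.60 (-7.72 ± 0.47). Wild-type replicate 3 was the high one there and in Slco1a1. Sult1e1, an estrogen sulfotransferase, was lower on both foods (-4.49 on Wy14643 and -4.15 on control food). Hormone and hepatokine genes had 27 measured members, 11 lower and 4 higher, with Fgf21 at least 3.74 higher and Lepr at least 3.65 higher, and with Angptl8 (-3.61) and Lect2 (-1.88) lower. Outside these groups, Lifr, a receptor chain for interleukin 6 type cytokines, was among the genes with large differences, at 7.26, 7.32, 7.82 and 7.71 against 11.03, 11.21, 11.11 and 10.72.

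Glucose genes went both ways, with 7 of 34 higher and 9 lower (median -0.06). Glycogen targeting subunits of protein phosphatase 1 differed in sign. Ppp1r3c gave 6.37, 3.76, 4.61 and 3.34 in wild type and 8.37, 8.88, 7.40 and 8.06 in knockout, and Ppp1r3b differed by -2.18 ± 0.25, whereas Ppp1r3g gave 5.44, 7.57, 6.08 and 7.96 against 1.09, 1.52, 1.5 and 1.47. The liver pyruvate kinase Pklr was lower (-3.70 ± 0.22), and Pck1, of gluconeogenesis, was not called (-0.52 ± 0.28). The muscle isoform of fructose bisphosphatase, Fbp2, was higher by 4.97 ± 0.18, and the liver isoform Fbp1 differed by -0.41 ± 0.08, under the fold required for a call. Clock genes were called in 3 of 21 lower and 0 higher, Per2 (-1.97 ± 0.42), Bhlhe40 (-1.50 ± 0.23) and Cry2 (-0.75 ± 0.19), and that of Cry2 was lost in 6 of the refits without 1 array.

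Of 20 hepatocyte factors 3 were higher and 4 lower, and of 40 receptors and coregulators 4 and 6. The C/EBP factors differed in sign, Cebpb by 1.23 ± 0.20 and Cebpa by -1.03 ± 0.19, and knockout replicate 4 was the lowest of its group in both, at 8.51 and 10.16. Without that array the differences were 1.01 and -1.26, both called. Xbp1, the factor that expands the secretory pathway, gave 9.62, 10.01, 9.86 and 9.16 in wild type and 11.11, 10.88, 11.23 and 11.12 in knockout (-1.42 ± 0.16). Folding and translocation genes of the endoplasmic reticulum were lower in 22 of 53 and higher in 0 (median -0.48), with the Xbp1 nuclease Ern1 at -1.96 and the chaperone Hyou1 at -1.41. Cytosolic and mitochondrial heat shock genes were instead higher in 13 of 32 and lower in 1 (median 0.51). Hspb1, a small chaperone, gave 8.20, 8.14, 8.52 and 8.85 against 3.99, 3.86, 3.23 and 3.08.

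The proteasome divided into its constitutive and its interferon-inducible parts. Of 38 subunit and regulator genes 12 were higher and 3 lower (median 0.47), and in 31 every wild-type array lay above every knockout array. Psmd4, a ubiquitin receptor of the cap, gave 10.95, 11.04, 10.89 and 10.98 in wild type and 9.56, 9.47, 9.37 and 9.41 in knockout (1.51 ± 0.09). The constitutive catalytic subunits Psmb5, Psmb6 and Psmb7 differed by 0.62 ± 0.09, 0.39 ± 0.08 and 0.56 ± 0.09, the first of them called. The 3 lower members were the inducible catalytic subunits that replace them. Psmb8 gave 4.08, 4.38, 3.95 and 4.02 against 6.84, 7.18, 6.97 and 6.90 (-2.87 ± 0.11), Psmb10 differed by -1.45 ± 0.13 and Psmb9 by -1.31 ± 0.23. Interferon and antigen presentation genes had 41 measured members, 17 lower and 0 higher (median -0.60), with Ifi47 at -1.94. Ifitm3, a membrane protein that blocks viral entry, gave 8.18, 8.54, 7.98 and 8.65 against 11.96, 12.08, 11.93 and 11.82. Kupffer cell markers moved with these groups. Of 15 such markers 10 were lower in wild type and 0 higher, and their summed level was 9.58 to 9.97 in wild type and 10.51 to 10.95 in knockout. On Wy14643, 2 of the 15 were at or below the array medians in both genotypes. The part of these cells in the result was not tested.

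Other non-parenchymal markers differed too. Of 13 stellate cell markers 7 were lower and 0 higher, with sums of 10.89 to 11.05 in wild type and 11.61 to 11.91 in knockout, and Pdgfrb (-1.15) and Colec10 (-1.05) led. Of 13 sinusoidal endothelial markers 1 was higher and 1 lower, and that pair was Lyve1, a hyaluronan receptor (2.82 ± 0.25), and Stab2 (-0.70). In 7 alternatives 2 were lower, among them the refit without knockout replicate 4. Their sums were 10.46 to 10.57 in wild type and 10.77 to 10.95 in knockout. Lyve1 gave 4.98, 5.00, 4.59 and 5.85 against 2.28, 2.59, 2.30 and 1.96. Alas2, the erythroid form of the first enzyme of heme synthesis, was lower, at 6.40, 6.90, 6.86 and 6.81 against 9.43, 9.57, 9.31 and 9.44, while the other 2 erythroid markers were at or below the array medians. The markers of cholangiocytes, T and NK cells, B and plasma cells, neutrophils and skeletal muscle had no called member, with median differences of -0.26 to 0.23. Many of them were too dim for a difference to show. The means of both genotypes were at or below the array medians in 6 of 6 neutrophil and 5 of 6 T and NK cell markers. The same held for 3 of 5 cholangiocyte, 3 of 6 skeletal muscle and 2 of 5 B and plasma cell markers. The lack of calls therefore does not show that these cells were unchanged. Of 4 adipocyte markers 1 was called, Pparg, which was lower (-1.47) but dim, with means of 3.28 in wild type and 4.75 in knockout. The other 3 were at or below the array medians in both genotypes.

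Genes of DNA replication were higher in 23 of 39 and lower in 1 (median 1.11), and cyclins and mitosis genes in 20 of 49 and 0 (median 0.55). All 6 subunits of the MCM helicase were higher. Mcm5 gave 6.59, 7.19, 6.53 and 8.42 in wild type and 2.69, 2.91, 2.65 and 2.78 in knockout (4.43 ± 0.29), and Mcm6 gave 6.27, 5.40, 6.08 and 8.13 against 1.72, 2.34, 2.43 and 1.87. Wild-type replicate 4 was the highest in both, and it lay more than 1 unit above the rest of its group in 12 genes, among them Mcm5, Mcm6, Cdt1, Gmnn and Tk1. Without that array 21 replication genes were higher and 2 lower. Mcm10, a replication factor outside the helicase, was the lower member with all arrays, with 7.67, 8.40, 8.51 and 8.35 against 9.80, 9.24, 9.95 and 9.84. Many of these genes were dim in knockout. Among genes with a mean above 4 the counts were 10 for replication and 9 for mitosis, and above 6 they were 3 and 3. Members under each cutoff were not tested there and were counted as not called. These lower counts therefore include removal from the test and do not by themselves show failed calls. Of the named called genes still tested above 6, 0 lost their call. The replication count was 15 with an offset of 8 on the linear scale, and 15 in a fit of the 8 arrays alone. Growth arrest genes were called as well. Cdkn1a, the p21 inhibitor, gave 5.28, 5.56, 5.34 and 5.73 against 3.27, 3.06, 2.49 and 2.39, and Gadd45b gave 7.69, 7.54, 7.10 and 4.33 against 1.78, 1.98, 1.42 and 2.23, at least 4.42 higher. Wild-type replicate 4 was the low one there, and without it the measured difference was 5.59, against 4.81 with all arrays. Gadd45a was lower (-2.14).

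**Figure D4:**
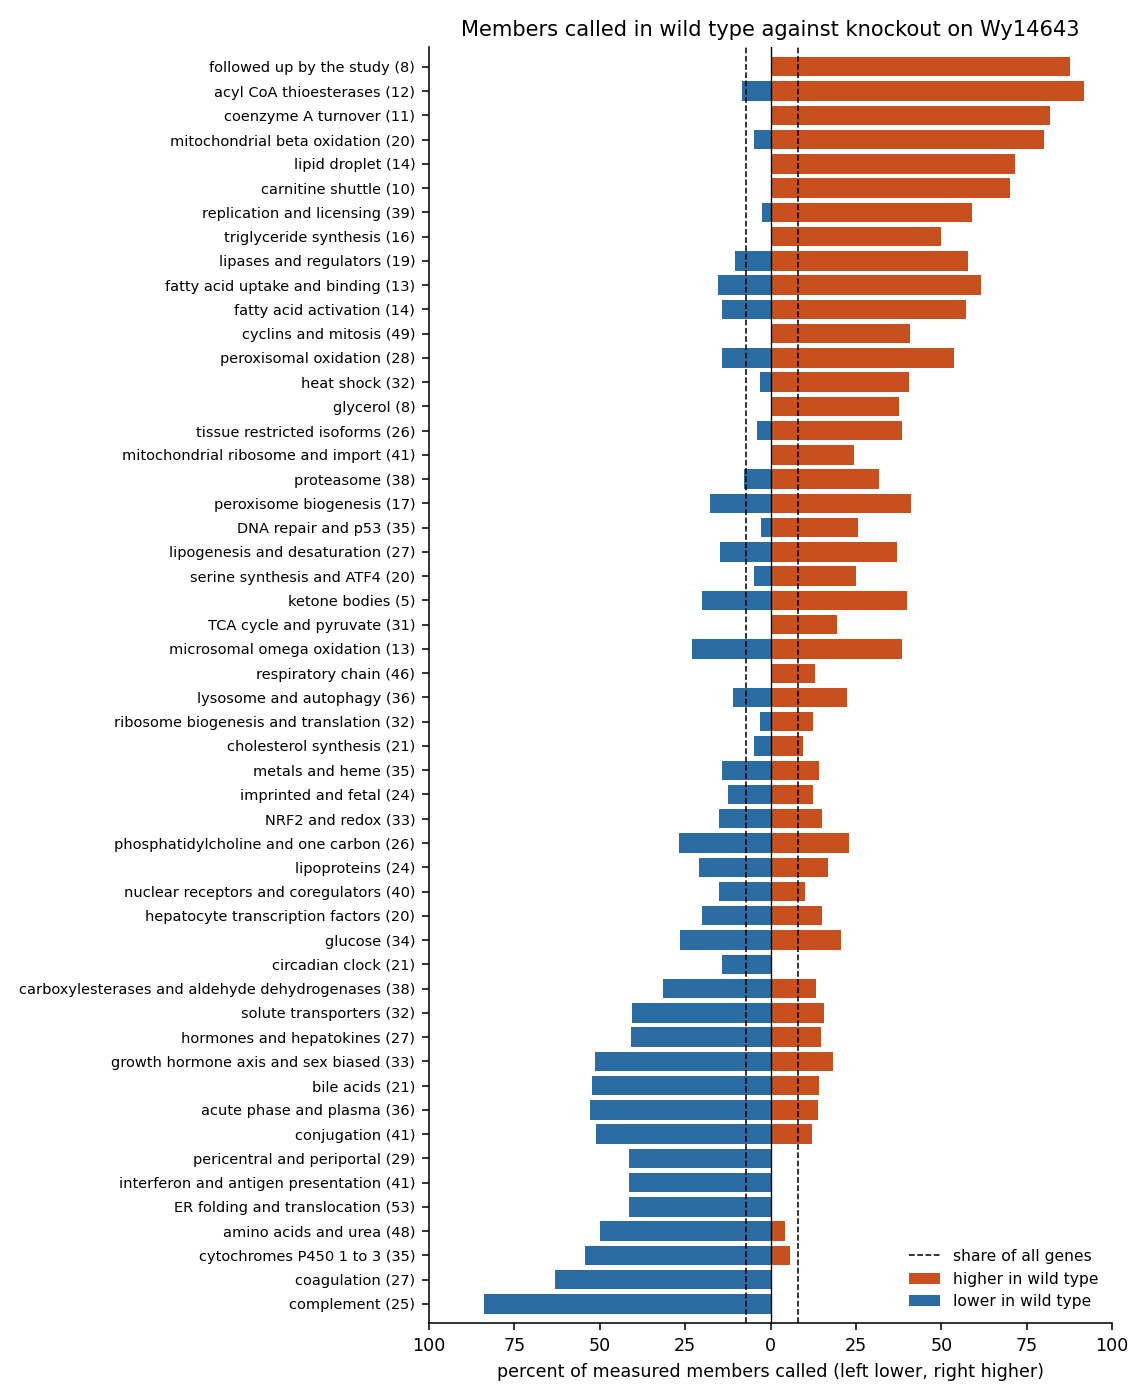
Share of the measured members of each gene list (number in brackets) called higher (right) or lower (left) in wild type under Wy14643, against knockout, with dashed lines at the share of all genes, 8.12% and 7.13%. Lipid, replication and proteasome lists extend to the right, and complement, coagulation, cytochrome P450 and amino acid lists to the left.

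Of the 8 genes that the study followed up, which it chose on these samples and which are therefore not independent evidence, 7 were higher and 0 lower. Genes known from other tissues or from development differed in both directions. Of 26 tissue-restricted isoforms 10 were higher and 1 lower. Cox6b2, a respiratory subunit known from testis, gave 10.67, 10.58, 10.50 and 10.44 in wild type and 2.34, 2.17, 1.88 and 3.05 in knockout. It was already higher in wild type on control food, by 5.88 (adjusted p = 3.75e-11 in limma), and the difference between foods was 2.31. Krt23, a keratin, gave 8.89, 9.27, 9.36 and 9.25 against 2.72, 2.92, 3.27 and 3.07 (6.20 ± 0.13). Outside that group, Amn, which anchors the vitamin B12 receptor of the gut and kidney, was at 7.37, 7.31, 7.14 and 7.26 against 1.18, 0.95, 1.15 and 1.04, at least 32.7-fold higher. The reverse was seen in Fam47e, at 0.80, 0.64, 1.0 and 0.79 in wild type and 6.06, 6.27, 6.24 and 6.17 in knockout, and in the G protein subunit Gna14, at least 14-fold lower. Of 24 imprinted and fetal genes 3 were higher and 3 lower, and without wild-type replicate 3 the higher ones numbered 5. The lower ones were the neighbouring maternal RNAs Meg3, Rian and Mirg. Meg3 gave 2.00, 3.20, 2.95 and 2.81 against 8.73, 9.05, 9.08 and 9.67, while the paternal Dlk1 of the same cluster lay under the array medians in all 8 arrays and was not called. Peg3, an imprinted zinc finger gene, was at 7.20, 7.15, 7.66 and 7.08 against 2.69, 2.60, 2.57 and 2.21.

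Metal handling was dominated by a few genes, with 5 of 35 higher and 5 lower. Mt1 gave 11.25, 11.16, 9.77 and 11.87 in wild type and 7.0, 6.95, 7.42 and 8.37 in knockout, and Mt2 gave 9.36, 9.19, 7.17 and 10.86 against 4.62, 4.93, 4.57 and 6.20. In both metallothioneins wild-type replicate 3 was the lowest of its group and replicate 4 the highest. The hepatic iron hormone Hamp was lower (-1.26). Redox genes of the NRF2 type were called in 5 of 33 higher and 5 lower. The 5 lower became 2 without wild-type replicate 2, and 3 without knockout replicate 2 or 3. Of lysosome and autophagy genes 8 of 36 were higher and 4 lower. Genes of serine synthesis and of the ATF4 response were higher in 5 of 20 and lower in 1, with Psph at 1.51 and Atf4 itself at -0.74, and without knockout replicate 4 there were 2 lower. Ribosome biogenesis and translation genes were called in 4 of 32 higher and 1 lower, and DNA repair and p53 genes in 9 of 35 and 1, where the 9 became 5 without knockout replicate 1 and 5 without knockout replicate 2.

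The same genotypes differed far less on control food, where wild type was higher in 73 genes (0.401%) and lower in 26 (0.143%). Of the 73, 68 were also higher on Wy14643, which is 93.2% of the control food list and 4.60% of the Wy14643 list. Of the 26, 18 were also lower on Wy14643 (69.2% of the one and 1.39% of the other), and 4 were higher there. The difference of the genotype differences between the foods was called upward in 979 genes (5.38%) and downward in 841 (4.62%). Among the genes higher on both foods it was called in 45, all with the larger difference on Wy14643, and its adjusted p exceeded 0.05 in 17. Acot1 was one of the 4 that turned, since its mean on control food was 6.30 for wild type and 7.95 for knockout (-1.64, adjusted p = 2.5e-05 in limma). Pdk4 averaged 4.26 and 7.08 there (-2.83), short of the call at an adjusted p of 0.011, and its difference between foods was 9.22.

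**Figure D5:**
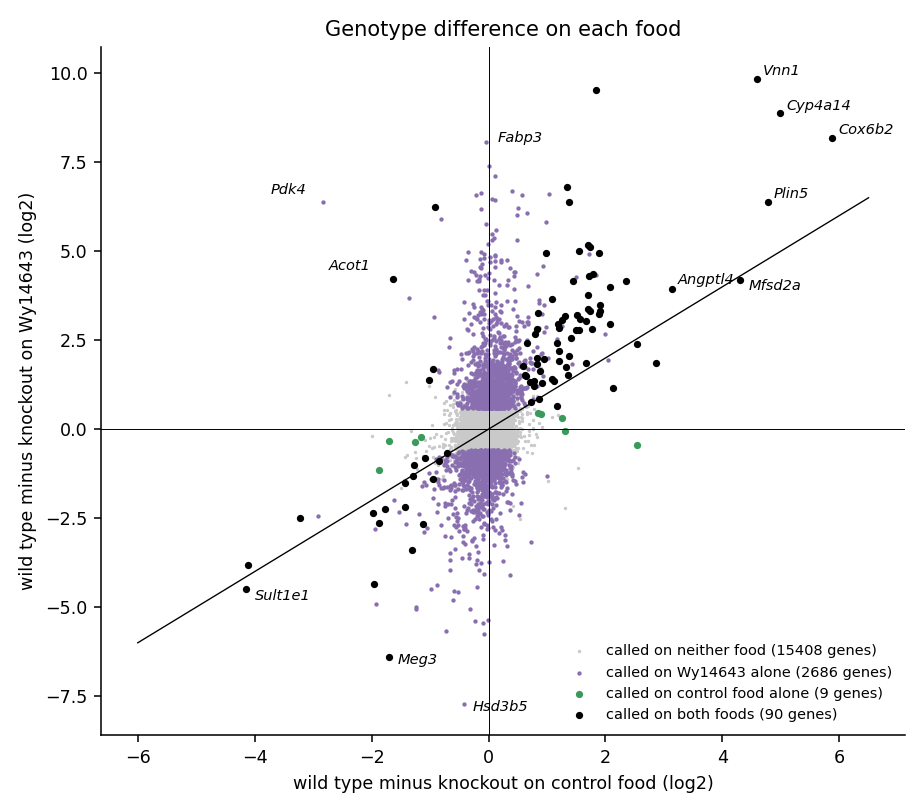
Wild type minus knockout (log2) on control food (horizontal axis) and on Wy14643 (vertical axis), 1 point per gene, with a diagonal line where both are equal. The 90 genes called on both foods lie mostly in the upper right and lower left, 2686 genes were called on Wy14643 alone, and 9 on control food alone.

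Some genes were called on both foods with no call for the difference between them, which does not show that the differences are equal. Mfsd2a, a lysophospholipid importer, gave 7.81, 8.78, 8.71 and 9.16 in wild type and 5.23, 3.77, 6.10 and 2.55 in knockout on Wy14643 (4.20 ± 0.60) and differed by 4.30 on control food. Angptl4, an inhibitor of lipoprotein lipase, differed by 3.94 ± 0.40 and 3.13, the thiolase Acaa1b by 1.87 ± 0.11 and 1.66, and Scd1, the stearoyl-CoA desaturase, by 2.95 ± 0.30 and 2.08. Lower on both foods were Serpinb1a, a neutrophil protease inhibitor, with 3.38, 3.50, 2.90 and 2.96 against 7.26, 6.40, 7.49 and 6.81 on Wy14643 (-3.81 ± 0.32) and -4.12 on control food, and the acetyltransferase Nat8 (-2.36 ± 0.21 and -1.98). Substrain and genotype cannot be told apart in these either.

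More than 1 probe set was present for 9010 genes. At least 1 was called in 2073 of them and 2 or more in 894, while 478 genes had a called probe set other than their brightest, which was not called. Probe sets of 1 gene were called in opposite directions in 4 genes, Dennd6b, Rmdn1, Sft2d2 and Sulf2. In Sulf2, an extracellular sulfatase, the probe set that is brightest over all 16 arrays differed by -0.98 ± 0.16 and the others by 1.38 ± 0.24 and 1.51 ± 0.21. Such genes are uncertain, and which transcript each probe set reads was not tested.

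Among genes with a group mean of at least 8, the median standard deviation on Wy14643 was 0.0866 for wild type and 0.119 for knockout, against 0.0905 and 0.0828 on control food. The largest spreads within wild type were those of Mt2, Igfbp1, Cyp7a1, Apoa4, Lpin1 and Mt1, and within knockout those of Tubb2a, Noct, Serpina4-ps1, Alas1, Phlda1 and Usp2. Igfbp1, a fasting-responsive binding protein, ran over 8.55, 10.06, 8.73 and 10.92 in wild type and 7.12, 8.0, 9.42 and 8.38 in knockout and was not called (1.33 ± 0.93). Alas1, the first enzyme of hepatic heme synthesis, ran over 11.19, 9.15, 11.87 and 10.22 in knockout. Tubb2a, at 9.87, 9.36, 8.37 and 6.62, and Noct, a clock-driven phosphatase, at 8.20, 8.82, 9.91 and 6.70, were lowest in knockout replicate 4.

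The 250 bases before and 50 bases after the gene start were searched for the PPAR element, 2 copies of AGGTCA spaced by 1 base, on either strand. RefSeq promoters of build GRCm38.p6 were matched to 14368 of the 18193 genes. With at most 1 of the 12 fixed bases changed, 8 of 1199 genes higher in wild type held it (0.667%), 11 of 1023 lower genes (1.08%) and 80 of all 14368 (0.557%), against 0.554% of all 32851 promoters in the table. With at most 2 changed the shares were 4.25%, 6.16% and 3.96%. The intact element was in 0 of the higher genes, 1 of the lower and 7 in all. These few matches are shown because they are the called genes of the lists above, and 1 other gene with the intact element, that hold it wholly before their start. The element is in capitals, as its reverse complement where it opens with TGACC, each line reads along the gene's strand, and a match is a description of letters only.
Acot12 (chr13:91741387-91741447, plus strand, higher by 1.35 ± 0.11): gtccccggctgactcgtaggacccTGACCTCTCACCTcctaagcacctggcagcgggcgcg
Slco1a1 (chr6:141947060-141947120, minus strand, lower, -3.97): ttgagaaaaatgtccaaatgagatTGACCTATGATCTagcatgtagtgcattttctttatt
F7 (chr8:13025976-13026033, plus strand, lower, -2.81): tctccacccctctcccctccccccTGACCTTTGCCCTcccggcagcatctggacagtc
Fads6 (chr11:115297647-115297707, minus strand, lower, -1.61): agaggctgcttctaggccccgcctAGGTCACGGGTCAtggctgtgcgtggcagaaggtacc
Adh4 (chr3:138415455-138415496, plus strand, lower, -1.20): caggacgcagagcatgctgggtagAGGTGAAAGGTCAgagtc
Bco1 (chr8:117095785-117095845, plus strand, lower, -1.40): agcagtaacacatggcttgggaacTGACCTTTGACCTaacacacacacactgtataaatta
Acot12, a cytosolic acetyl-CoA hydrolase, gave 10.36, 10.42, 10.30 and 10.42 in wild type and 8.81, 8.94, 8.98 and 9.36 in knockout, and it was the member of the lipid lists above with such a match among the higher genes. Bco1, which cleaves carotene to retinal, gave 3.28, 3.09, 3.47 and 3.16 against 4.75, 4.83, 4.63 and 4.37 and carries the intact element 56 bases before its start. The genes with the largest increases, such as Vnn1, Cyp4a31 and Fabp3, showed no such letters in this short window, which says nothing of sites elsewhere.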

How the data were processed

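RNA from 16 livers was hybridised to 16 Affymetrix mouse genome arrays, 1 mouse each. The authors processed the scans with GCRMA 2.20, which adjusts background with probe sequence, quantile normalizes the arrays and summarizes probes per probe set, and deposited the intensities on a linear scale. GCRMA compresses dim probe sets toward a common floor, so that differences of low genes can be set by that floor. The labels and the methods differ on the number of mice and on RNA amount and labelling, and the 4 arrays per group used here are those of the labels. Scanner files were not used here, so detection calls and scan dates are unknown.

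Of 45101 probe sets 64 array controls were left out, and log2 was taken with no offset. With limma 3.58.1 in R 4.3.3, 1 mean per group was fitted over all 16 arrays with moderated variance. The contrasts were wild type minus knockout on Wy14643, the same on control food, and their difference. Benjamini-Hochberg adjustment covered all 45037 probe sets, and calls needed an adjusted p under 0.01 and a fold over 1.5. GEO's platform annotation gave 34945 probe sets 1 gene, 932 several and 9160 none, and 34741 matched RefSeq by gene identifier. A gene was represented by the probe set with the highest mean over the 16 arrays. A probe set whose dimmer group averaged at or below 2.24, the highest array median, was given a bound against that value. The members and the 63 gene lists were chosen with earlier results of these data known. Of 1655 list entries 1506 were matched, and the others are not analysed here.

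Genes were named by rule: Ppara, the 12 largest called differences in each direction with both means at least 6 and no overlap, the 8 brightest in each direction whose other group did not exceed that bound, the 6 with the largest moderated statistic in each direction, the 6 largest in each direction that were called on both foods with no clear difference between them, the 6 with the largest spread in each group, genes with opposite probe sets, and the 4 leading called members of each list in each direction with others that complete a pathway. Genes named for 1 array that stands apart, or for a promoter match, were chosen after their values were seen. Alternatives were other filters, normalizations, thresholds, variance models, offsets and probe set choices, a replicate block and leaving out each array. On data simulated for the Wy14643 contrast with 200 of 45037 probe sets changed, 184 were recovered with 1 false call. Far fewer probe sets were changed there than the 4991 called in the data. The simulation checks the fitting steps and does not give the recovery or the false call rate of the reported calls.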

Additional observations from a re-analysis of the deposited data

Results flagged for a closer look

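Of 72 named genes, 144 groups of 4 arrays were screened for an array that stands apart, and 9 groups (6.25%) had an array whose gap to the next, as a share of the group's range, passed Dixon's critical value, where chance gives about 1 in 20. In wild type on Wy14643 these were C8a (0.925), Rtn4 (0.902), Apoa4 (0.867) and Gna14 (0.834). The array apart was replicate 3 in C8a and Rtn4 and replicate 4 in Apoa4 and Gna14. In knockout they were C1s1 (0.941), Crat (0.919), Cidec (0.889), Apoa4 (0.841) and Angptl4 (0.834), and the array was replicate 4 in C1s1, Crat and Cidec, replicate 1 in Apoa4 and replicate 3 in Angptl4.

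The genotype difference itself differed between the foods, by limma's test of the difference of differences, in 45 of the 72 genes. These genes were named for their size on Wy14643, which shares its arrays with that test. The difference on Wy14643 minus that on control food, on the log2 scale, was positive in 23 genes, Slc27a1 (7.38), Mogat1 (7.01), Fabp4 (6.78), Slc39a5 (6.77), Cidec (6.33), Amn (6.32), Bhlhb9 (6.28), Acot1 (5.85), Krt23 (5.70), Rab30 (5.57), Rad51b (5.47), Pmm1 (5.43), Vnn1 (5.26), Cd36 (5.13), Crat (4.73), Pltp (4.65), Mt1 (3.99), Mt2 (3.75), Hspa1b (3.61), Pex11a (3.16), Aldh3a2 (2.59), Rtn4 (2.07) and Decr2 (1.80). It was negative in 22, Cyp2c54 (-5.69), Fam47e (-5.15), Aox3 (-4.46), Serpina4-ps1 (-4.25), Hsd11b1 (-3.99), Thrsp (-3.89), Slco1a1 (-3.80), Cyp2c50 (-3.63), BC052688 (-3.58), Apoa4 (-3.50), Sult1a1 (-3.34), Gna14 (-3.28), Ifitm3 (-3.27), C8b (-3.26), C8a (-3.17), C1s1 (-3.06), Ces1c (-3.05), Lifr (-2.84), Slc2a5 (-2.57), Lrtm1 (-2.40), Necab1 (-1.85) and Rian (-1.73). For genes whose dimmer group lies near the array median these values depend on the floor.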

How the results depend on the processing

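Of 326 called genes that were named, 296 were called in every alternative that could be run for them, 29 were lost in at least 1, and Sulf2 turned direction with the probe set of largest standard deviation (1.51). Refits without 1 array lost 17, among them 8 without knockout replicate 4. An offset of 8 and a fit of only the 8 arrays lost 12 each. On Wy14643 the 4991 probe sets became 2515 with means above 6, 2612 at a fold over 2 and 1856 with limma's treat at a fold of 1.5. Those higher became 1835 with means above 4, 1178 above 6, 1584 at a fold over 2 and 1135 with treat, and those lower 1337 above 6, 1028 at a fold over 2 and 721 with treat. On control food treat left 49 probe sets, 41 higher and 8 lower, and an adjusted p under 0.05 gave 83 lower. The difference between foods was called in 2041 at a fold over 2 (769 lower) and 981 with treat (619 higher, 362 lower). With means above 6, it was called higher in 1012 of the 8355 tested. Without 1 of the 16 arrays the calls on Wy14643 were 4673 to 4967 (4930 at most without a Wy14643 array), and, without 1 control food array, those lower on control food 26 to 42, lowest without wild-type control replicate 3 (26) and knockout control replicate 1 (27). Of 126 list counts 42 moved by over 1.5 times in at least 1 of 18 alternatives, and 4 did so without knockout replicate 4. With means above 6, thioesterases higher fell from 11 to 6 and lipid droplet genes from 10 to 5. Members under that mean were not tested there and counted as not called. Of the named called genes still tested with means above 6, 0 lost their call. What else moved list counts was not tested.

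Replicate numbers were not used as pairs in the main fit. Same-numbered wild-type and knockout arrays on Wy14643 deviated together with r of 0.0697 to 0.168, over 0.1 in 2 of 4 pairs. Differently numbered arrays of these groups gave -0.121 to 0.0927, over 0.1 in 0 of 12 pairs. Over all groups, 6 of 24 same-numbered and 7 of 72 differently numbered pairs exceeded 0.1. What a shared number stands for was not tested. With the number as a replicate block 5005 probe sets were called on Wy14643, and 3 named genes lost their call. The depth of an array is its signal over background, and 204 of the genes called higher and 66 of those lower had a dimmer mean at or below the highest array median.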
